A study of Homo sapiens with 14 samples.

Results

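The 57 protein-coding genes described here encode the factors that start, extend and end protein synthesis on cytosolic ribosomes. They were chosen by name from 58037 gene IDs matched to GENCODE 29: symbols that begin with EIF1 to EIF6, EEF1 or EEF2, together with the release factor genes ETF1 and GSPT1. Kinases, methyltransferases and binding proteins named after a factor (the EIF2AK and EIF4EBP genes, EIF4ENIF1, EEF2K, EEF2KMT and the EEF1AKMT genes) were left out, as was EIF1AY.

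The cells were OCI-AML2, a human acute myeloid leukaemia line. HHT, homoharringtonine, is a plant alkaloid that blocks elongation by ribosomes that have just started on an mRNA. The groups were RUNX1 R174*/wt cells given 100 nM HHT for 8 h (4 total RNA libraries, 2 from each of the mutant lines F3 and G7), their untreated or vehicle controls (4 total RNA libraries from the same lines), wild-type RUNX1 parent cells (2 total RNA libraries), R174*/wt RiboLace libraries (2, from line F3) and wild-type RiboLace libraries (2). R174* is a stop codon on 1 of the alleles of RUNX1, a haematopoietic transcription factor. The labels call the controls 8 h in the treatment field and 0 h in the description. If the controls were taken at 0 h, 8 h of culture and HHT cannot be told apart. No wild-type library had HHT, so the HHT response of wild-type cells was not measured. RiboLace is a pull-down of translating ribosomes with a puromycin-like probe; no RiboLace library had HHT. Each mutant line may be a single clone, which the labels do not state, and they do not say that replicates were separate cultures, so p-values measure the spread between these libraries. In bulk RNA, fewer cells of a kind and less RNA per cell cannot be told apart.

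An mRNA is read after eIF4F, made of the cap-binding eIF4E, the scaffold eIF4G and the helicase eIF4A, loads a small ribosomal subunit that carries eIF1, eIF1A, eIF3, eIF5 and the eIF2 complex with its initiator tRNA. eIF5 makes eIF2 hydrolyse its GTP at the start codon, eIF5B joins the large subunit, and eIF2B recharges eIF2 for the next round. eEF1A then brings each aminoacyl-tRNA, eEF2 moves the ribosome one codon on, eIF5A helps with slow peptide bonds, and eRF1 and eRF3, encoded by ETF1 and GSPT1, release the finished chain. Many mRNAs of this machinery begin with a C followed by a run of pyrimidines, the 5' terminal oligopyrimidine (TOP) start that ties their translation to mTOR signalling.

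Total RNA libraries held 19250789 to 21925693 counts and RiboLace libraries 465052 to 2034796, so RiboLace values carry more counting error. The 57 genes took 2.56% to 3.43% of the counts in total RNA and 1.35% to 1.75% in RiboLace. All 8 leukocyte and myeloid markers checked were at 5 CPM or more in every group, and erythroid markers had 0 reads in every library. The summed level of the 8 was 3100 to 3470 CPM after HHT, 5540 to 7830 CPM in the mutant controls and 3250 to 3840 CPM in wild-type total RNA, and 2870 to 4290 CPM in mutant RiboLace, against 3350 to 4640 CPM in wild-type RiboLace. The 4 B cell markers summed to 9.22 to 10.9 CPM after HHT, 15.2 to 17.5 CPM in the mutant controls and 13.4 to 14.4 CPM in wild-type total RNA, and to 33.1 to 42.6 CPM in mutant RiboLace, against 17.8 to 24.1 CPM in wild-type RiboLace. The 4 T cell markers summed to at most 0.836 CPM. Markers of epithelial and stromal cells summed to 14.2 to 22.7 CPM in mutant RiboLace, 6.29 to 12.1 CPM in wild-type RiboLace and at most 1.29 CPM in total RNA. These sums rest on few genes. Only 1 of the 4 B cell markers was at 5 CPM or more in each group, with 2 at 0 reads in mutant RiboLace. Of the 4 epithelial and stromal markers, 1 was at 5 CPM or more in RiboLace, and 3 had 0 reads in mutant RiboLace. In total RNA the leukocyte and B cell sums thus moved with HHT and genotype. The B cell and stromal sums were higher in RiboLace than in total RNA, and higher in mutant than in wild-type RiboLace. The leukocyte sums overlapped between genotypes in RiboLace, and in the mutant were lower there than in control total RNA. The part of these markers in the results below was not tested. RUNX1 itself was at 80.0 to 134 CPM in the mutant controls, against 132 and 142 CPM in wild-type total RNA; a stop codon on one allele need not change the gene count, so this does not check the genotype. Levels below, like the sums above, are CPM, a gene's count relative to the counts of its whole library, scaled by TMM within each assay. CPM of RiboLace and of total RNA are therefore not on a common scale. Differences are log2 fold changes ± standard error from edgeR's quasi-likelihood test. Each fit was scaled by TMM over its own libraries, so a fold change need not equal the ratio of the printed CPM. A gene is called at a Benjamini-Hochberg adjusted p under 0.05 over all genes tested.

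Of the 57 genes, 53 had enough reads to be tested in the total RNA comparisons. EEF1G, which encodes the gamma subunit of the eEF1B exchange factor, EIF4E1B, an oocyte form of eIF4E, and the readthrough EEF1E1-BLOC1S5 had 0 reads in all 14 libraries. In GENCODE 29, 99.9% of the exon bases of EEF1G also lie in exons of the same-strand readthrough gene AP002990.1, which had 0 to 16 reads a library. EEF1A2, the muscle and neuron form of eEF1A, did not pass the filter and stayed at or under 1.05 CPM.

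Translation factors differed in both directions after HHT, and some complexes went mostly in a single direction while others split. All 5 genes of eIF2B and 6 of the 7 genes grouped under start-codon selection and subunit joining rose. Lower were 11 of the 14 eIF3 genes, 5 of the 6 in the eIF2 group, 3 of the 4 tested eEF1 genes and EEF2. In all, 18 of the 53 tested genes were higher after HHT and 28 lower, with a median log2 fold change of -0.15. Among all 13621 genes tested, 79.2% were called, 39.9% higher and 39.3% lower, with a median of 0.00, so that most members were called says little about them. In 37 of the 53 members the HHT and control libraries did not overlap, a share not counted over all genes. The summed level of the 57 genes was 25030 and 25250 CPM in F3 and 22540 and 23260 CPM in G7 after HHT, against 35370 and 37510 CPM in F3 and 30950 and 33650 CPM in G7 in controls, and the groups did not overlap. EEF1A1 and EEF2 were the most abundant members in every total RNA library, and the sum mostly follows them. The mean of EEF1A1 was 6037 CPM after HHT and 10660 CPM in controls, and that of EEF2 5176 and 9000 CPM. Scaling by library totals alone, without TMM, shifted the median of all genes by 0.23 and gave 22 higher and 17 lower members, of which 35 were called in both fits. The calls of EIF1, EIF1AD, EIF2B1, EIF2S2, EIF3A, EIF3C, EIF3I, EIF4E2 and EIF4G1, which lie between -0.24 and 0.17, were each lost when at least 1 of the 8 libraries was left out, with adjusted p up to 0.255 for EIF1AD without control replicate 1.

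**Figure D1:**
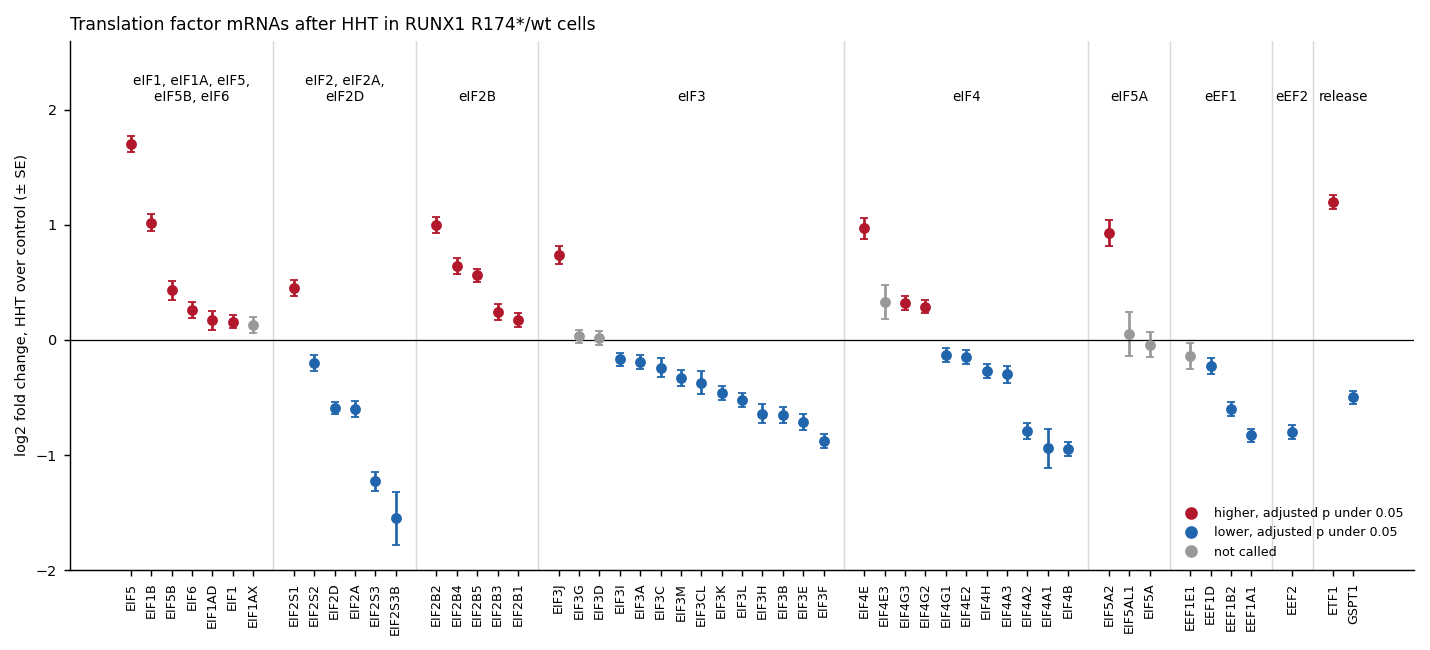
Log2 fold change of HHT over control (y axis, ± standard error) for the 53 tested genes, grouped by complex and ordered within each; red is higher, blue lower, grey not called. The 5 eIF2B genes lie between 0.17 and 1.00, while 11 of the 14 eIF3 genes lie below 0.

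The annotated start of these genes went with the direction. A start was counted as pyrimidine-type when the first transcribed base of the RefSeq entry (GRCh38.p14) was C and at least the next 4 bases were C or T, read on the gene's own strand; 5.14% of 27305 symbols with an entry have one (1404). Of the 57 genes 48 had an entry, and 13 of the 48 had such a start. These 13 are EEF1A1, EEF1B2, EEF2, EIF2A, EIF2D, EIF2S3, EIF2S3B, EIF3D, EIF3F, EIF3K, EIF3M, EIF4A2 and EIF4B. After HHT 12 of the 13 were lower and 0 higher, with a median of -0.79, and EIF3D was the one not called (0.02 ± 0.06, adjusted p = 0.762). Of the 32 tested genes with another start, 9 were lower and 18 higher, with a median of 0.21. Over all protein-coding genes tested, 723 had the start, with a median of -0.33 and 54.9% lower, and 8540 did not, with a median of 0.09 and 36.5% lower. The start was looked at after the values had been seen, so these are descriptions with no test. EEF1A2, EEF1D, EIF2S2, EIF3A, EIF3CL, EIF3E, EIF3G, EIF3H and EIF3L had no entry.

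The 50 bases around the start are shown for 7 genes with the run and 5 raised genes without it, so that the difference can be read off; each begins 30 bases before the annotated start, and capitals mark the run of pyrimidines that begins at the start. EEF1A1 lies at chr6:73521013-73521062, minus strand; EEF1B2 at chr2:206159865-206159914, plus strand. EEF2 lies at chr19:3985444-3985493, minus strand, and EIF2S3 at chrX:24054926-24054975, plus strand. EIF4B lies at chr12:53006426-53006475, plus strand, EIF3F at chr11:7987307-7987356, plus strand, and EIF3D at chr22:36529147-36529196, minus strand. EIF5 lies at chr14:103334207-103334256, plus strand, and ETF1 at chr5:138543217-138543266, minus strand. EIF2B2 lies at chr14:75002891-75002940, plus strand, EIF1B at chr3:40309677-40309726, plus strand, and EIF4E at chr4:98929114-98929163, minus strand.
EEF1A1: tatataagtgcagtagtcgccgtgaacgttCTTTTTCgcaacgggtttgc
EEF1B2: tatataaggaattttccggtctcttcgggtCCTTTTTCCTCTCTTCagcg
EEF2: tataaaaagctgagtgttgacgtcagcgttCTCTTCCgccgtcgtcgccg
EIF2S3: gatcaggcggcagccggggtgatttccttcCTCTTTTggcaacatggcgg
EIF4B: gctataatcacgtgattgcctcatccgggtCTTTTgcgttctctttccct
EIF3F: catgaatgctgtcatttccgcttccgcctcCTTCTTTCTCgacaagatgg
EIF3D: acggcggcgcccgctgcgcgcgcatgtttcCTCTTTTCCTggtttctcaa
EIF5: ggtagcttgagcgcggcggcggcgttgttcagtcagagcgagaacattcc
ETF1: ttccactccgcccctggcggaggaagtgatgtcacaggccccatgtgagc
EIF2B2: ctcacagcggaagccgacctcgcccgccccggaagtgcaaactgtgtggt
EIF1B: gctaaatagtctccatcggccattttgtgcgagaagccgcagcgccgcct
EIF4E: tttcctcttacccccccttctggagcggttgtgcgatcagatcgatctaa
The runs are 16 bases in EEF1B2, 10 in EIF3F and EIF3D, 7 in EEF1A1, EEF2 and EIF2S3 and 5 in EIF4B. Run length did not order the response, since EIF4B had the shortest run of these 7 and one of the largest falls.

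**Figure D2:**
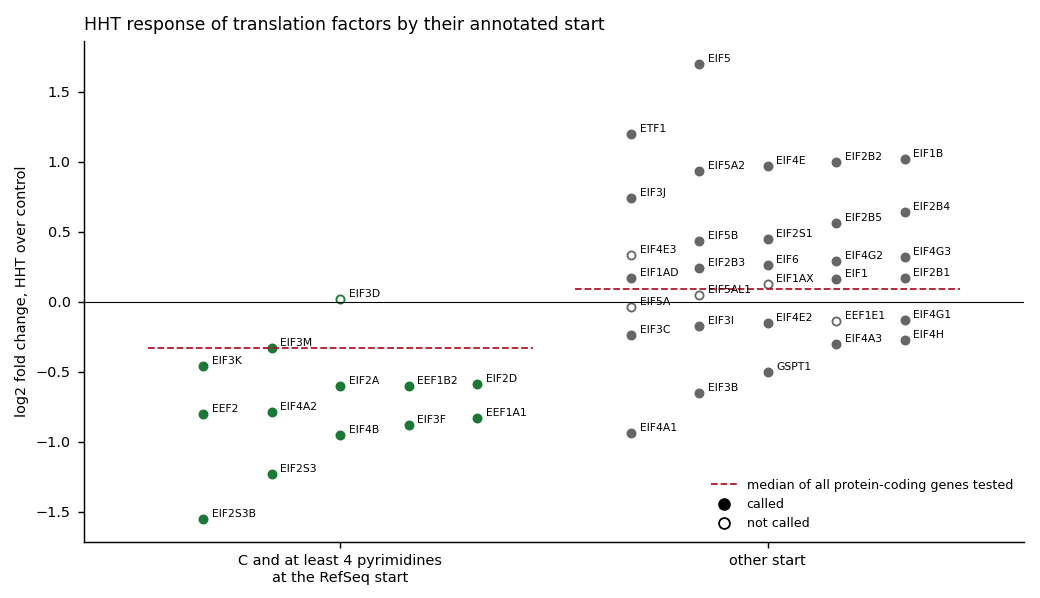
Log2 fold change of HHT over control (y axis) for the 45 tested genes with a RefSeq entry, split by their start; filled points are called, open points not, and dashed lines are the medians of all protein-coding genes tested with that start (-0.33 and 0.09). All 12 called genes with the pyrimidine start lie below 0.

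Of the 7 genes grouped under start-codon selection and subunit joining, 6 were called higher and EIF1AX was not called. The group also holds EIF6 and EIF1AD, whose roles differ or are less certain. EIF5, whose product makes eIF2 hydrolyse its GTP, was at 514 and 517 CPM in F3 and 423 and 446 CPM in G7 after HHT, against 156 and 136 CPM in F3 and 143 and 144 CPM in G7 in controls. Every HHT library was above every control library, and this was the largest rise of the 53 (1.70 ± 0.07, adjusted p = 3.42e-11). EIF1B, a close relative of EIF1 that also guards start-codon choice, was at 66.1 and 70.0 CPM in F3 and 54.9 and 61.1 CPM in G7 after HHT, against 32.2 and 34.8 CPM in F3 and 26.1 and 30.8 CPM in G7 in controls. The groups again did not overlap (1.02 ± 0.07, adjusted p = 1.14e-08). EIF5B, the GTPase that joins the large subunit, was at 371 and 427 CPM in F3 and 499 and 509 CPM in G7 after HHT, against 259 and 314 CPM in F3 and 342 and 421 CPM in G7 in controls. G7 was above F3 in both groups, so the groups overlapped although each line's HHT libraries were above its own controls (0.43 ± 0.08, adjusted p = 0.000174).

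Smaller differences were seen in the rest of this set. EIF6, which keeps free large subunits from joining too early, was at 128 and 121 CPM in F3 and 105 and 109.8 CPM in G7 after HHT, against 87.7 and 98.5 CPM in F3 and 99.5 and 100.1 CPM in G7 in controls, and the groups did not overlap (0.26 ± 0.07, adjusted p = 0.00423). EIF1 was at 732 and 752 CPM in F3 and 647 and 669 CPM in G7 after HHT, against 646 and 719 CPM in F3 and 535 and 603 CPM in G7 in controls, with overlap between the groups (0.16 ± 0.06, adjusted p = 0.0291). EIF1AX, which encodes eIF1A, was at 90.6 and 89.7 CPM in F3 and 84.8 and 97.5 CPM in G7 after HHT, against 74.2 and 76.4 CPM in F3 and 84.6 and 95.2 CPM in G7 in controls, overlapping and not called (0.13 ± 0.07, adjusted p = 0.0947). EIF1AD, an eIF1A-like gene of less certain role, was called at 0.17 ± 0.08 with an adjusted p of 0.0493, and with the replicate number as a block this became 0.0555. The calls of EIF1 and EIF1AD were also lost with RLE size factors (adjusted p = 0.0606 for EIF1 and 0.0822 for EIF1AD).

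All 5 subunits of eIF2B, the exchange factor that recharges eIF2 and that phosphorylated eIF2 inhibits, were higher after HHT with no overlap of the groups. EIF2B2, the beta subunit, was at 70.3 and 75.4 CPM in F3 and 61.7 and 69.8 CPM in G7 after HHT, against 38.2 and 37.5 CPM in F3 and 29.4 and 33.7 CPM in G7 in controls (1.00 ± 0.07, adjusted p = 1.49e-08). EIF2B5, the catalytic epsilon subunit, was at 219.5 and 215 CPM in F3 and 189 and 203 CPM in G7 after HHT, against 134 and 140.1 CPM in F3 and 148 and 138 CPM in G7 in controls (0.56 ± 0.06, adjusted p = 1.35e-06). Both stood clear of their controls in each line. The differences of the delta subunit EIF2B4 (0.64 ± 0.07), the gamma subunit EIF2B3 (0.24 ± 0.07) and the alpha subunit EIF2B1 (0.17 ± 0.06) were smaller. The summed level of the 5 was 560 and 559 CPM in F3 and 502 and 529 CPM in G7 after HHT, against 367 and 385 CPM in F3 and 391 and 385 CPM in G7 in controls.

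The 3 subunits of eIF2 itself did not move together. EIF2S1, the alpha subunit that stress kinases phosphorylate, was at 213 and 217 CPM in F3 and 201 and 219 CPM in G7 after HHT, against 145 and 159 CPM in F3 and 139 and 176 CPM in G7 in controls and rose (0.45 ± 0.07, adjusted p = 5.74e-05). EIF2S3, the gamma subunit that holds GTP and the initiator tRNA, was at 192 and 181 CPM in F3 and 217 and 216 CPM in G7 after HHT, against 464 and 499.7 CPM in F3 and 429.9 and 477 CPM in G7 in controls. No library of one group reached the other, and this was the largest fall among well-read members (-1.23 ± 0.08, adjusted p = 2.53e-09). EIF2S2, the beta subunit, differed by -0.20 ± 0.07, adjusted p = 0.0185, which turned to 0.04 with library totals alone. EIF2S3B, a retrocopy of EIF2S3, read at most 0.655 CPM after HHT and at least 1.35 CPM in controls (-1.55 ± 0.23, adjusted p = 2.45e-05); 37.3% of its 30-letter words also occur in another annotated gene, so its reads and those of EIF2S3 cannot be told apart with certainty. EIF2A and EIF2D, which can bring initiator tRNA without eIF2, fell by 0.60 (adjusted p = 1.16e-06) and by 0.59 (adjusted p = 1.45e-07) on the log2 scale.

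In eIF3, the large scaffold that binds the small subunit, 11 of 14 genes were called lower and 1 higher, with a median of -0.35; with library totals alone EIF3A and EIF3I turned to 0.05 and 0.06. EIF3F was at 168 and 159.5 CPM in F3 and 131 and 132 CPM in G7 after HHT, against 279.7 and 301 CPM in F3 and 252 and 243 CPM in G7 in controls, the largest fall of the complex and without overlap (-0.88 ± 0.06, adjusted p = 4.47e-09). EIF3E (-0.71 ± 0.07), EIF3B (-0.65 ± 0.07), EIF3H (-0.64 ± 0.08), EIF3L (-0.52 ± 0.06) and EIF3K (-0.46 ± 0.06) fell without overlap too. EIF3A, the largest subunit, was at 293 and 315 CPM in F3 and 351 and 359 CPM in G7 after HHT, against 345 and 374 CPM in F3 and 365 and 405 CPM in G7 in controls, and its groups overlapped (-0.19 ± 0.06, adjusted p = 0.0142). The exception was EIF3J, a loosely held subunit that acts at the mRNA entry channel, at 243 and 252 CPM in F3 and 241 and 272 CPM in G7 after HHT, against 131 and 149 CPM in F3 and 144 and 180.2 CPM in G7 in controls (0.74 ± 0.08, adjusted p = 7.81e-07), with every HHT library above every control. EIF3D, which can itself bind a cap, and EIF3G were not called (0.02 ± 0.06 and 0.03 ± 0.06). EIF3C and EIF3CL are near-identical neighbours, 98.5% of the 30-letter words of EIF3CL lying in another gene, so that their reads cannot be told apart; their differences were -0.24 ± 0.08 and -0.37 ± 0.10.

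The cap-binding and helicase factors split. EIF4E, the cap-binding protein, was at 61.7 and 61.7 CPM in F3 and 56.1 and 57.7 CPM in G7 after HHT, against 24.4 and 29 CPM in F3 and 31.9 and 35.4 CPM in G7 in controls, and rose without overlap (0.97 ± 0.09, adjusted p = 2.09e-07). EIF4G1, the main scaffold, was at 1091 and 1028 CPM in F3 and 1186 and 1096 CPM in G7 after HHT, against 1122 and 1121 CPM in F3 and 1326 and 1249 CPM in G7 in controls with overlapping groups (-0.13 ± 0.06, adjusted p = 0.0451), which became 0.10 with library totals alone. Its relatives EIF4G2, a scaffold that does not bind eIF4E, and EIF4G3 rose by 0.29 ± 0.06 and 0.32 ± 0.06. EIF4A2, a paralogue of the eIF4A helicase, was at 653 and 684 CPM in F3 and 671 and 738 CPM in G7 after HHT, against 1150 and 1233 CPM in F3 and 1049 and 1281 CPM in G7 in controls, a fall without overlap (-0.79 ± 0.07, adjusted p = 1.49e-07). EIF4B, which stimulates the helicase, was at 312 and 318 CPM in F3 and 347 and 357 CPM in G7 after HHT, against 569 and 623 CPM in F3 and 664 and 704 CPM in G7 in controls, and every HHT library was below every control (-0.95 ± 0.06, adjusted p = 1.64e-09).

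EIF4A1, usually the most abundant eIF4A gene, read only 3.56 and 3.31 CPM in F3 and 5.72 and 3.58 CPM in G7 after HHT, against 8.27 and 5.60 CPM in F3 and 9.48 and 7.41 CPM in G7 in controls. The groups overlapped, and the call (-0.94 ± 0.17, adjusted p = 0.000183) rests on few reads: 48.6% of its exon bases lie in another same-strand gene such as the readthrough SENP3-EIF4A1, and 13 pseudogenes held 69.0% of its family's total RNA reads. Whether these counts follow the EIF4A1 mRNA was not tested. EIF4H, a helper like EIF4B, and EIF4A3, the helicase of the exon junction complex, fell by 0.27 and 0.30 on the log2 scale (adjusted p = 0.00139 and 0.00105). EIF4E2, a cap-binding repressor, differed by -0.15 ± 0.06, adjusted p = 0.0452, which turned to 0.08 with library totals alone. EIF4E3 was not called (0.33 ± 0.15, adjusted p = 0.0581).

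Among the elongation factors EEF1A1, the most abundant member, was at 6648 and 6790 CPM in F3 and 5174 and 5538 CPM in G7 after HHT, against 11580 and 12130 CPM in F3 and 8658 and 10270 CPM in G7 in controls. HHT and control libraries did not overlap, and F3 was above G7 in both (-0.83 ± 0.06, adjusted p = 2.24e-08). EEF2, the translocase, was at 5481 and 5397 CPM in F3 and 4918 and 4910 CPM in G7 after HHT, against 9767 and 10190 CPM in F3 and 8054 and 7986 CPM in G7 in controls and fell by nearly as much (-0.80 ± 0.06, adjusted p = 1.65e-08). EEF1B2, the beta exchange subunit that recharges eEF1A, was at 641 and 693 CPM in F3 and 573 and 579 CPM in G7 after HHT, against 935 and 1048 CPM in F3 and 862 and 902 CPM in G7 in controls (-0.60 ± 0.06, adjusted p = 2.96e-07). All 3 therefore stood below their controls in every library. EEF1D, the delta exchange subunit, differed by -0.23 ± 0.07, adjusted p = 0.00734, and by 0.00 with library totals alone. EEF1E1, a scaffold of the aminoacyl-tRNA synthetase complex, was not called (-0.14 ± 0.11, adjusted p = 0.23).

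The release factors moved in opposite directions. ETF1, encoding eRF1, which reads the stop codons, was at 259 and 253 CPM in F3 and 247 and 261 CPM in G7 after HHT, against 102 and 100.3 CPM in F3 and 118 and 123 CPM in G7 in controls. No library overlapped, and this was the second largest rise (1.20 ± 0.06, adjusted p = 5.71e-10). GSPT1, encoding its partner GTPase eRF3a, was at 223 and 217 CPM in F3 and 217 and 218 CPM in G7 after HHT, against 277 and 303 CPM in F3 and 324 and 335 CPM in G7 in controls and fell (-0.50 ± 0.06, adjusted p = 2.68e-06). In eIF5A the paralogues differed: EIF5A2 was at 19.9 and 21.2 CPM in F3 and 19.2 and 22.5 CPM in G7 after HHT, against 8.69 and 10.8 CPM in F3 and 10.5 and 13.2 CPM in G7 in controls (0.93 ± 0.11, adjusted p = 1.81e-06), without overlap. EIF5A, the common form, was at 468 and 458 CPM in F3 and 409 and 389 CPM in G7 after HHT, against 343 and 431 CPM in F3 and 531 and 465 CPM in G7 in controls, where the lines went apart and the pooled difference was not called (-0.04 ± 0.11, adjusted p = 0.767).

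**Figure D3:**
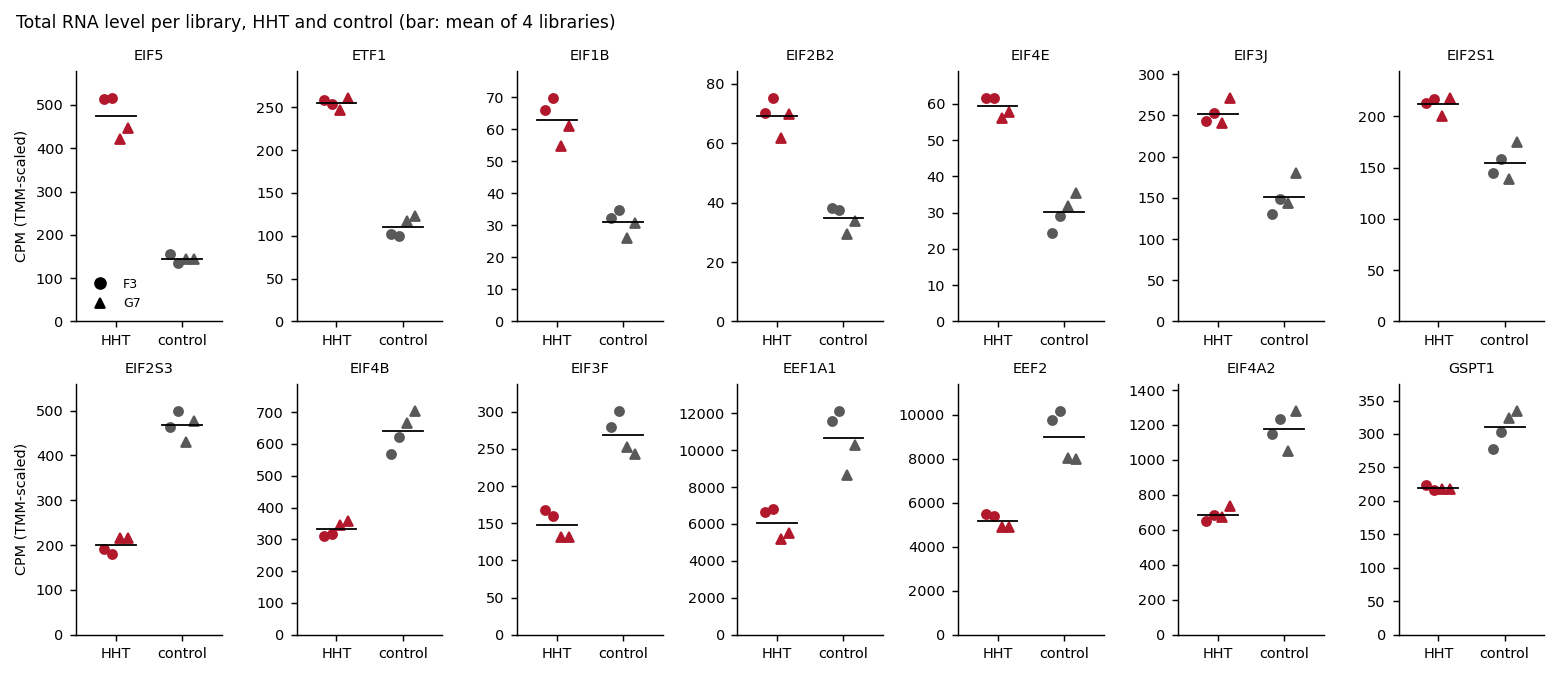
CPM per library (y axis, from 0) for 14 genes, HHT left and control right; circles are F3, triangles G7, and bars the mean of 4 libraries. The groups do not overlap in any of the 14 genes.

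EIF5A was the 1 member of 53 whose HHT response was called different between the lines (-0.56 ± 0.14, adjusted p = 0.0322), against 3.80% of 14435 genes tested. The difference was 0.23 in F3 alone (adjusted p = 0.037) and -0.31 in G7 alone (adjusted p = 0.0101). In all, 8 members had an unadjusted p under 0.05, among them EIF4E (-0.43 ± 0.13, adjusted p = 0.0911) and EIF2S3 (0.32 ± 0.11, adjusted p = 0.125), which were not called. The EIF5A call did not hold when any 1 of 6 of the 8 libraries was left out, with values from -0.37 without control replicate 1 (adjusted p = 0.233) to -0.60 without HHT replicate 3 (adjusted p = 0.0749).

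Genes that regulate or modify these factors were read beside them, from 5 lists. Of 49 tested, 18 were higher and 27 lower after HHT, with a median of -0.33. Of the 6 genes for eIF2alpha kinases and phosphatase subunits, 4 rose and 2 fell. PPP1R15A, which encodes GADD34 and directs dephosphorylation of eIF2alpha, was at 753 and 766 CPM in F3 and 409 and 424 CPM in G7 after HHT, against 223 and 250.4 CPM in F3 and 121 and 152 CPM in G7 in controls (1.64 ± 0.07, adjusted p = 1.1e-10), without overlap of the groups. Its constitutive relative PPP1R15B rose by 0.79 ± 0.06, and the kinase genes EIF2AK1 and EIF2AK4 (HRI and GCN2) differed by -0.74 ± 0.06 and -0.76 ± 0.06.

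Of 12 tested cap complex regulators and poly(A)-binding proteins, 9 fell and 2 rose. EIF4EBP1, the mTOR-controlled inhibitor of eIF4E, was at 60.7 and 56.8 CPM in F3 and 45.3 and 45.6 CPM in G7 after HHT, against 195 and 229.7 CPM in F3 and 201 and 191 CPM in G7 in controls (-1.99 ± 0.07, adjusted p = 1.73e-11). MKNK2, a kinase of eIF4E, differed by -1.95 ± 0.08, adjusted p = 2.83e-11. Both were lower in every HHT library than in any control. PABPC4 and PABPC1, which bind poly(A) tails, fell by 1.42 and 1.18 on the log2 scale.

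Of the 14 genes that modify elongation factors, 5 rose and 7 fell. EEF2K, the kinase that inhibits eEF2, was at 9.35 and 9.03 CPM in F3 and 14.3 and 12.7 CPM in G7 after HHT, against 60.1 and 54.5 CPM in F3 and 60.8 and 52.2 CPM in G7 in controls (-2.35 ± 0.12, adjusted p = 3.12e-10), the largest fall of the lists. Its HHT response also differed between the lines (0.60 ± 0.16, adjusted p = 0.0436), as did that of DOHH, which completes the hypusine of eIF5A (-0.61 ± 0.14, adjusted p = 0.0212). DPH3, of the diphthamide pathway that modifies eEF2, and EEF2KMT, an eEF2 methyltransferase, rose by 1.13 ± 0.08 and 1.13 ± 0.10, and EEF1AKMT3 fell by 1.39 on the log2 scale. Of 8 tested genes for recycling, rescue and reinitiation, 4 rose and 4 fell; ABCE1, which splits ribosomes after termination, was at 40.1 and 41.7 CPM in F3 and 54.2 and 57.9 CPM in G7 after HHT, against 102 and 116 CPM in F3 and 129 and 155 CPM in G7 in controls (-1.38 ± 0.07, adjusted p = 5.21e-10), and DENR (0.62 ± 0.06), TRMT112 (-0.59 ± 0.07) and EEFSEC (0.44 ± 0.06) moved less. Of 9 mitochondrial translation factors, 3 rose and 5 fell. MTRF1L, a mitochondrial release factor, was at 29.7 and 32.7 CPM in F3 and 24.2 and 24.4 CPM in G7 after HHT, against 5.43 and 6.01 CPM in F3 and 6.52 and 6.09 CPM in G7 in controls (2.19 ± 0.11, adjusted p = 2.43e-10), while GFM2, MTIF2 and TUFM fell by 0.75, 0.69 and 0.56 on the log2 scale.

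The count of translation factors called between RUNX1 genotypes in total RNA depended on which lines were set against wild type. With both mutant lines, 1 of 53 genes was called, where 4.56% of 13949 genes were, and 6 had an unadjusted p under 0.05. In F3 alone 8 were called, 1 higher and 7 lower, where 22.7% of all genes were, among them EIF5A (-0.55, adjusted p = 0.00053), EIF5B (-0.47, adjusted p = 0.00219) and EIF1 (0.41, adjusted p = 0.0041). In G7 alone 2 were called, and the share of all genes called in that fit is not given here. The one called with both lines was EIF4A3, at 94.6 and 103 CPM in G7 and 86.2 and 97.5 CPM in F3, against 132 and 133 CPM in wild type. EIF4A3 was 1 of 17 members of the 53 whose mutant and wild-type libraries did not overlap, a share not counted over all genes. EIF4A3 was lower in both lines (-0.49 ± 0.10, adjusted p = 0.0263). In F3 alone the difference was -0.54 and in G7 alone -0.43, both called, but the call was lost without either wild-type library (adjusted p = 0.222 without replicate 1 and 0.185 without replicate 2) and without F3 control replicate 1 (0.0589). EIF5A was at 531 and 465 CPM in G7 and 343 and 431 CPM in F3, against 593 and 537 CPM in wild type; all 4 mutant libraries were below wild type, and the difference was not called (-0.36 ± 0.15, adjusted p = 0.203).

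Of the regulators, 1 of 49 was called. This was EIF2AK2, the double-stranded RNA sensing kinase of eIF2alpha known as PKR, at 49.3 and 53.2 CPM in G7 and 54.8 and 53.6 CPM in F3, against 31.4 and 41.2 CPM in wild type (0.53 ± 0.13, adjusted p = 0.0471). The call was not checked with a library left out.

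The untreated mutant lines differed from each other in 3 of 53 members, where 12.5% of 13949 genes were called. EIF5B was at 342 and 421 CPM in G7, against 259 and 314 CPM in F3 (0.41 ± 0.12, adjusted p = 0.0309). EEF2 was at 8054 and 7986 CPM in G7, against 9767 and 10190 CPM in F3 (-0.32 ± 0.10, adjusted p = 0.0385). EIF2A was at 222 and 243 CPM in G7, against 288 and 292 CPM in F3 (-0.32 ± 0.10, adjusted p = 0.0448). With the numbers of the authors' column names as a block, 15 members were called, 9 higher and 6 lower in G7, where 22.9% of all genes were; that fit had 1 residual degree of freedom. None of the 3 overlapped between the lines. With 2 libraries a line, 25 of the 53 members did not overlap, a share not counted over all genes. EEF2 was not called without any 1 of the 6 libraries (adjusted p = 0.0675 to 0.155), EIF2A without F3 replicate 1 or 2 or G7 replicate 3 (0.208 to 0.255), and EIF5B without F3 replicate 1 (0.359) or G7 replicate 4 (0.208). Of the 49 regulators 5 were called, including PPP1R15A (-0.79 ± 0.13, adjusted p = 0.000356), N6AMT1 (0.68 ± 0.13, adjusted p = 0.0023) and MKNK2 (-0.44 ± 0.10, adjusted p = 0.00706).

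In RiboLace, mutant F3 and wild type differed in 2 of the 47 members that could be tested, where 11.8% of 9805 genes were called. EIF4G3, an eIF4G relative, was at 189.7 and 190.2 CPM in mutant RiboLace, against 105 and 104 CPM in wild-type RiboLace (0.86 ± 0.26, adjusted p = 0.027). EIF3K, a small eIF3 subunit, was at 135 and 116 CPM in mutant RiboLace, against 247 and 191 CPM in wild-type RiboLace (-0.79 ± 0.27, adjusted p = 0.0482). With 2 libraries a group, 33 of the 47 members did not overlap between the genotypes, a share not counted over all genes. EIF4G3 and EIF3K were among them. Neither was called by DESeq2 (adjusted p = 0.0606 for EIF4G3 and 0.0988 for EIF3K), and leaving out 1 library gave 0 called members without wild-type replicate 1, mutant replicate 1 or mutant replicate 2, and 7 without wild-type replicate 2. Leaving out 1 library leaves 1 library in its group, and those counts are given without their shares over all genes. Among 41 tested regulators EIF2AK2 was again higher (1.19 ± 0.31, adjusted p = 0.0116), while GFM1, a mitochondrial elongation factor (-1.19 ± 0.30, adjusted p = 0.00904), and MCTS1, a partner of DENR (-1.85 ± 0.40, adjusted p = 0.00301), were lower. MCTS1 had 15 and 5 reads in mutant RiboLace, against 99 and 34 in wild-type RiboLace.

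**Figure D4:**
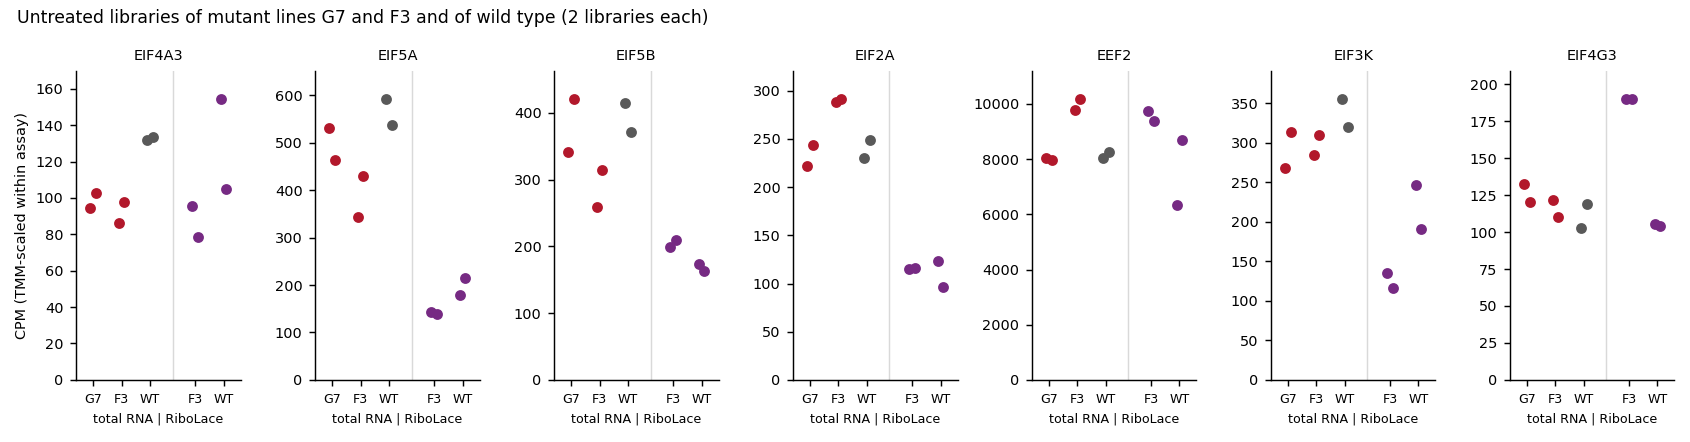
CPM per library (y axis, from 0) in untreated cells for 7 genes called in a genotype, line or RiboLace comparison; red is mutant total RNA (G7, then F3), grey wild-type total RNA, and purple RiboLace (F3, then wild type). EIF4A3 lies at 86.2 to 103 CPM in the mutant lines and at 132 and 133 CPM in wild type.

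RiboLace counts of the translation factors were mostly below those of total RNA, with wide differences between genes. In mutant F3, 2 of 53 members were higher in RiboLace and 31 lower, with a median of -0.76; of all 15338 genes 49.2% were called, 26.5% higher and 22.7% lower, with a median of -0.02. In wild type, 3 were higher and 25 lower, with a median of -0.49, where 48.3% of all genes were called, 27.3% higher and 21.0% lower, with a median of 0.01. RiboLace libraries were shallower, and no source used here says how they were made, so these ratios are not read as translation rates. The CPM below are scaled within each assay, while the fold changes come from a fit scaled over both assays.

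EEF2 was not called between the assays, at 9756 and 9383 CPM in F3 RiboLace, against 9767 and 10190 CPM in F3 total RNA (0.07 ± 0.21, adjusted p = 0.8), and in wild type at 6335 and 8704 CPM in wild-type RiboLace, against 8047 and 8251 CPM in wild-type total RNA (0.07 ± 0.21, adjusted p = 0.809). EEF1A1, its partner in elongation, was at 319 and 359.8 CPM in F3 RiboLace, against 11580 and 12130 CPM in F3 total RNA (-5.00 ± 0.23, adjusted p = 3.04e-14). In wild type it was at 289.7 and 259 CPM in wild-type RiboLace, against 9614 and 9898 CPM in wild-type total RNA (-4.96 ± 0.23, adjusted p = 2.46e-14). This was the deepest fall of the 53 in both genotypes, and no library overlapped. The assays did not overlap in 47 of the 53 members in F3 and in 48 in wild type, a share not counted over all genes. With few libraries a group and CPM scaled within each assay, this count says little about the members. Of the reads of EEF1A1 and its 39 annotated pseudogenes, the pseudogenes held 79.7% and 81.5% in mutant RiboLace and 79.7% and 82.6% in wild-type RiboLace, against 1.91% to 2.22% in total RNA. With pseudogene reads added to the parent gene, the EEF1A1 difference was -2.65 in F3 and -2.58 in wild type.

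Large falls occurred in other genes that share sequence with annotated genes, and also in genes with less sharing, such as EIF3F (9.4% of 30-letter words shared) and EIF1AX (8.1%). EEF1B2, with 39.5% of its 30-letter words in another gene, was at 91.1 and 80.6 CPM in F3 RiboLace, against 935 and 1048 CPM in F3 total RNA (-3.37 ± 0.22, adjusted p = 1.48e-11), and at 132 and 102 CPM in wild-type RiboLace, against 925 and 880.1 CPM in wild-type total RNA (-2.75 ± 0.20, adjusted p = 1.11e-10). EIF4H (15% shared) was at 108 and 84.8 CPM in F3 RiboLace, against 506 and 541 CPM in F3 total RNA (-2.26 ± 0.20, adjusted p = 3.46e-09), and in wild type differed by -2.52 ± 0.19, adjusted p = 2.6e-10. In both genes RiboLace and total RNA stood far apart in every library. EIF2S2 (29.6% shared) differed by -2.87 ± 0.23 in F3 and -2.24 ± 0.19 in wild type, EIF4B (27.2%) by -1.65 ± 0.21 and -2.33 ± 0.21, and EIF2S3 (30.5%) by -1.87 ± 0.19 and -1.44 ± 0.18, all called. EIF3C (48.5%) was at 2.51 and 0 CPM in F3 RiboLace, against 20.2 and 22.4 CPM in F3 total RNA, and at 4.71 and 0.928 CPM in wild-type RiboLace, against 19.9 and 20.8 CPM in wild-type total RNA, few reads in RiboLace.

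The differences were smallest where little sequence was shared. With more sharing the member medians deepened at each step in F3, but not in wild type. Those of all protein-coding genes did so in neither. The 1 member above 50%, EIF3CL, differed by -3.54 in F3 and -4.51 in wild type, with at most 1 read in any RiboLace library. Among the 24 members with under 5% of 30-letter words in another gene, the median was -0.44 in F3, with 12 lower and 2 higher, and -0.24 in wild type, with 8 lower and 1 higher. The 11 members from 5% to 10% had medians of -0.52 in F3 and -0.43 in wild type, and the 5 from 10% to 20% had -1.34 and -1.89. Among the 12 members with 20% to 50% shared, the median was -1.48 in F3, with 8 lower and 0 higher, and -1.63 in wild type, with 7 lower and 1 higher. Over all protein-coding genes the medians were -0.11 in F3 and -0.03 in wild type under 5%, -0.38 and -0.22 from 5% to 10%, -0.62 and -0.47 from 10% to 20%, -0.49 and -0.63 from 20% to 50% and -0.37 and -0.54 above that. No source used here gives the read length or the handling of reads that match several places, and the part of shared sequence in the RiboLace differences was not tested. EIF4E, for one, differed by -1.15 ± 0.36 in F3 and -2.03 ± 0.30 in wild type, and its 5 pseudogenes held 48.1% of its family's RiboLace reads against 1.50% in total RNA; with those reads added the differences were -0.94 and -0.72. In F3 the EIF4E call was lost without RiboLace replicate 1, at -0.27 (adjusted p = 0.706), and without control replicate 2, at -0.92 (adjusted p = 0.0707). EIF4A1, not called in either genotype (-0.07 ± 0.58 in F3 and -1.20 ± 0.61 in wild type), turned to 0.78 in wild type once its pseudogene reads were added (adjusted p = 0.00528) and to -3.37 without wild-type RiboLace replicate 2 (adjusted p = 0.00486).

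**Figure D5:**
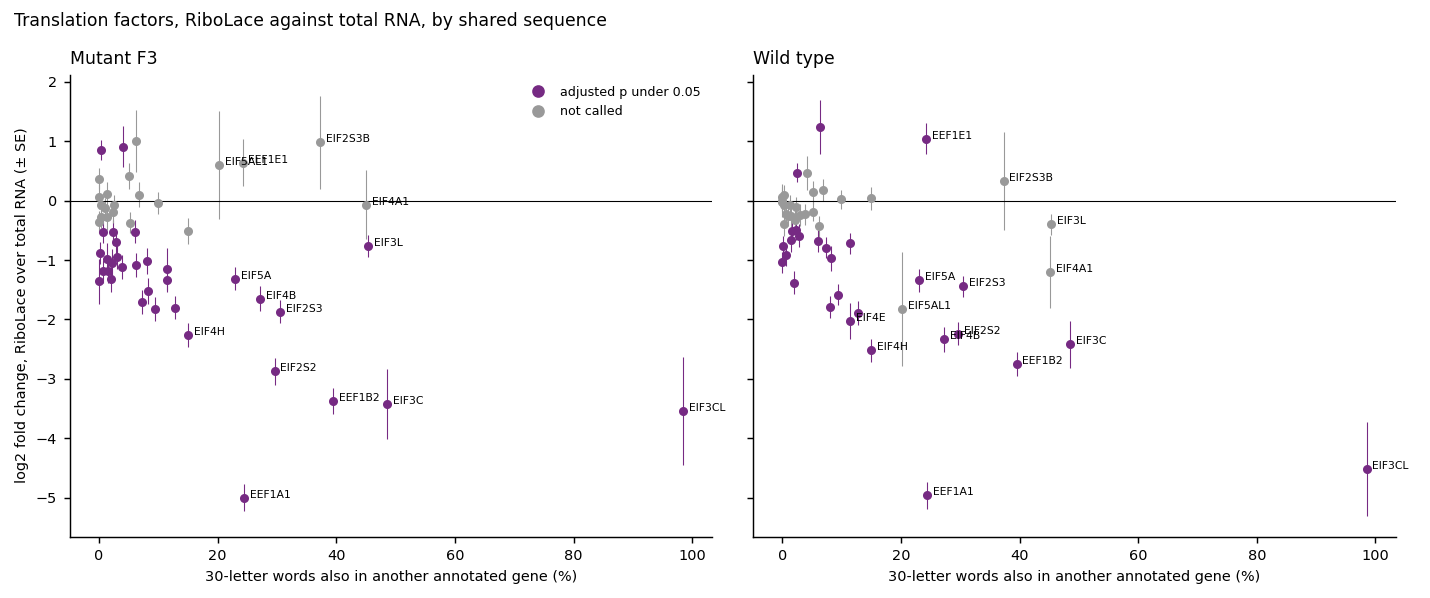
Log2 fold change of RiboLace over total RNA (y axis, ± standard error) against the share of each gene's 30-letter words that also occur in another annotated gene (x axis, percent), in mutant F3 (left) and wild type (right); purple points are called. EEF1A1 is lowest in both, at -5.00 and -4.96.

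By complex, eIF3 had 11 of 14 genes lower in F3 RiboLace (median -1.09) and 6 of 14 in wild type (median -0.42), with EIF3A, 0.37 ± 0.18 in F3 and -0.01 ± 0.17 in wild type, not called in either. EIF3F, EIF3E and EIF3I were called lower in both, by -1.82 ± 0.20, -1.52 ± 0.22 and -1.34 ± 0.20 in F3. In eIF2B, 4 of 5 were lower in F3 and 2 of 5 in wild type. EIF1AX, which stands for eIF1A, differed by -1.01 ± 0.22, adjusted p = 0.000485 in F3 and by -1.79 ± 0.19, adjusted p = 8.63e-08 in wild type. Of the core initiation factors EIF2S1 and EIF4G2 were not called in either genotype, nor were ETF1 (-0.04 ± 0.18 and 0.02 ± 0.16) and EIF6 (-0.51 ± 0.22 and 0.04 ± 0.19).

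Few members were higher in RiboLace. EIF4G3 was at 189.7 and 190.2 CPM in F3 RiboLace, against 122 and 110.4 CPM in F3 total RNA (0.85 ± 0.17, adjusted p = 0.000263), without overlap, and in wild type was not called (0.10 ± 0.17). EIF5A2 was at 17.6 and 14.5 CPM in F3 RiboLace, against 8.69 and 10.8 CPM in F3 total RNA (0.91 ± 0.35, adjusted p = 0.0375), a call lost without either RiboLace library (adjusted p = 0.502 without replicate 1 and 0.0707 without replicate 2) or without control replicate 1 (0.0768). In wild type EEF1E1 was at 30.9 and 13.9 CPM in wild-type RiboLace, against 13.1 and 13.6 CPM in wild-type total RNA (1.04 ± 0.26, adjusted p = 0.00205), a call that rests on replicate 1, since without it the value was 0.17 (adjusted p = 0.764). EIF5 was at 163 and 150.3 CPM in wild-type RiboLace, against 126 and 132 CPM in wild-type total RNA (0.47 ± 0.16, adjusted p = 0.0219), and was not called with library totals alone (adjusted p = 0.0981), without RiboLace replicate 1 (0.168) or without total RNA replicate 1 (0.077). EIF4E3, at 4.71 and 6.50 CPM in wild-type RiboLace, against 2.75 and 2.45 CPM in wild-type total RNA, was called at 1.24 ± 0.46, adjusted p = 0.0297 and lost that call without either RiboLace library (0.103 without replicate 1 and 0.173 without replicate 2) and without total RNA replicate 2 (0.065).

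The last comparison asked whether the RiboLace to total RNA ratio differed between mutant F3 and wild type, as an interaction term over both assays. By edgeR 0 of 53 members were called, where 1.49% of 15338 genes were; 16 had an unadjusted p under 0.05, and DESeq2 called 6, 3 higher and 3 lower. EIF1 (-0.92 ± 0.27, adjusted p = 0.0822), EIF3G (-0.88 ± 0.27, adjusted p = 0.0928), EIF4G3 (0.75 ± 0.24, adjusted p = 0.11) and EIF4G1 (0.79 ± 0.26, adjusted p = 0.125) had the smallest p-values. Leaving out wild-type RiboLace replicate 2 gave 12 called members, 3 higher and 9 lower, and leaving out any other library gave 0. The DESeq2 and left-out-library counts are given without their shares over all genes, and show only how the calls depend on the fit. EEF2 differed by 0.00 between the genotypes on this scale. Of 49 regulators only MCTS1 was called (-1.65 ± 0.39, adjusted p = 0.0352). This rests on 15 and 5 reads in mutant RiboLace, against 99 and 34 in wild-type RiboLace, and was not checked with a library left out.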

How the data were processed

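The authors deposited 1 table with a raw read count for every gene in 14 libraries. STAR 2.6.0b, DESeq2 and GRCh38 are named in the submitters' processing notes, with no role given. No source used here names the counting program, the strandedness or the read length, or says how RiboLace libraries were prepared.

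Gene IDs were matched to GENCODE 29 (57433 of 58037 matched and 604 did not). The members, lists and tests were chosen with earlier results of these data known. Tests were edgeR 4.0.16 quasi-likelihood F-tests (R 4.3.3, limma 3.58.1) after its filter on low counts and TMM scaling, with p-values adjusted by the Benjamini-Hochberg method over all genes tested. The standard error is the size of the log2 fold change over the square root of F. HHT was tested with line as a covariate, and the line difference in its effect as an interaction. Mutant against wild type took F3 and G7 as 1 group, G7 against F3 used a fit of 3 lines that included wild type, and the RiboLace to total RNA comparisons used 1 model over 4 groups. Named genes were a core set by role and, per comparison, up to 6 called members with the largest rises and 6 with the largest falls among those that averaged at least 5 CPM. From the 5 lists of regulators, up to 4 genes each with the smallest adjusted p were named. The scripts were also tested on simulated data.

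No replicates agreed within counting noise: chi-square over its degrees of freedom was 3.14 to 12.5 for replicates of a line. Replicate numbers come from the titles; the authors' column names end in other numbers for 7 of the 8 total RNA libraries of the mutant lines. HHT and control libraries with the same number deviated together from their group means (r = 0.494 to 0.603 over 4 pairs, which also share a line; within a line 0.193 in F3 and 0.389 in G7). By column name the matching pairs gave 0.193 in F3 and -0.389 in G7. The sign change in G7 follows from the exchanged numbers alone, since 2 libraries deviate from their mean by equal and opposite amounts. Each r within a line is thus 1 independent value. The 2 numberings disagree, and neither was taken to show which libraries belong together. Shared sequence is the share of the distinct 30-letter words of a gene's GENCODE 29 transcripts that also occur, in the same orientation, in a transcript of another gene. Starts and sequences are from RefSeq (GRCh38.p14). Alternatives were RLE size factors, no filter, DESeq2 1.42.0, protein-coding genes alone, a replicate block, no line covariate, fewer groups in the fit and each library left out. Library totals alone, reads of pseudogenes named after a member added to it, a crossed replicate block and a block on the column name numbers were chosen after seeing the data. Calls of the listed regulators were not checked under any of these alternatives.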

Additional observations from a re-analysis of the deposited data

Results flagged for a closer look

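Each member that averaged at least 5 CPM was looked at in the 4 HHT libraries and in the 4 control libraries, 100 sets in all. In 6 sets 1 library lay far from the other 3, and chance gives that in about 1 in 20. That rate assumes 4 libraries of a single kind, but each set pooled lines F3 and G7, so it is only a rough guide. EIF2B1 was at 105 CPM in HHT replicate 3, against 112 CPM in each of the others. EIF3E was at 742 CPM in HHT replicate 4, against 666 to 678 CPM, and GSPT1 at 223 CPM in HHT replicate 1, against 217 to 218 CPM. EIF3B was at 519 CPM in control replicate 3, against 451 to 462 CPM in the other controls. EIF3G was at 310 CPM in control replicate 2, against 271 to 276 CPM, and EIF6 at 87.7 CPM in control replicate 1, against 98.5 to 100 CPM.

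The HHT response of EIF5A differed between the lines by the interaction test, with G7 below F3 by a log2 difference of -0.56 (edgeR adjusted p = 0.0322).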

How the results depend on the processing

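For HHT, 46 members were called as reported and 34 (G7 alone) to 46 under the alternatives run. With library totals alone EIF3A (0.05), EIF4G1 (0.10), EIF3I (0.06), EIF4E2 (0.08) and EIF2S2 (0.04) changed sign, none called there. EIF5A changed sign in F3 alone (0.23), and EIF4A1 in wild-type RiboLace with pseudogene reads added (0.78). The causes were not tested. With a replicate block HHT gave 45 calls, and EIF1AD was the one lost. With 1 library left out, counts ran from 40 to 45 for HHT, 0 to 3 for the line difference in its effect, 0 to 1 for mutant against wild type, 0 to 5 for G7 against F3, 0 to 7 for mutant against wild-type RiboLace, 24 to 30 for RiboLace in wild type, 27 to 36 in F3 and 0 to 12 for the RiboLace ratio between genotypes.

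The counts in this section are given without their shares over all genes, and show only how the calls depend on the fit. Mutant against wild type gave 8 calls in F3 alone, 2 in G7 alone and 8 with a replicate block, where F3 alone shares numbers with wild type. G7 against F3 gave 5 with no filter and 5 with DESeq2. Mutant against wild-type RiboLace gave 1 with RLE size factors, 1 with library totals alone, 1 with pseudogene reads added, 0 with no filter, 0 with DESeq2 and 5 with a replicate block. The RiboLace ratio between genotypes gave 2 with no filter, 6 with DESeq2 and 0 with a replicate block. Outside HHT each comparison gave 1 independent r, from -0.102 to -0.000305, since 2 libraries deviate from their mean by equal and opposite amounts. A single value cannot show whether the numbers pair libraries. The replicate block gave 28 calls for RiboLace in wild type and 33 in F3, and a crossed block 29 in wild type. A block on the numbers that end the column names gave 40 calls for HHT, 1 for the line difference, 0 for mutant against wild type, 15 for G7 against F3 (r = 0.258, 1 independent value), 26 for RiboLace in wild type, 28 in F3 and 0 for the ratio. By title number, G7 and F3 share no replicate, so that block was not fitted there. RiboLace depth limits genes of a few CPM to a few reads a library.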
